A study of Caenorhabditis elegans with 2 samples.

Results

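In Caenorhabditis elegans larvae, peaks of the forkhead transcription factor FKH-4 were examined that lay between genes and away from the promoters of protein-coding genes. A peak was kept where its summit lay outside every coding promoter and every protein-coding gene. A coding promoter was taken to start 1000 bp before and to end 200 bp after the transcription start site (TSS) of any coding transcript. The rule kept 281 peaks, 23.6% of the reproducible set (95% exact interval 21.2 to 26.2), whose other peaks were 699 in promoters and 209 in gene bodies. The reproducible set (IDR, irreproducible discovery rate) was made by the authors from both replicates. By base count, the rule covers 25.04% of the nuclear genome. The closest misses lay just inside the window edge, with a peak 997 bp upstream of mig-2 (signal 61.4) left out. The nearest upstream peaks kept lay 1019 bp from a gene known by sequence name (signal 109) and 1024 bp from nfki-1 (signal 79.8).

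ChIP-seq (chromatin immunoprecipitation and sequencing) was done with an anti-GFP antibody on whole hermaphrodite L1 larvae, starved after bleaching and collected 6 h after synchronisation. Both samples are biological replicates of strain OP100, which carries unc-119(tm4063) on III and the insertion wgIs100, from which FKH-4 fused to eGFP is expressed. Whole larvae were used, so all tissues were pooled. The 2 samples form 1 group, so no condition was compared, and a control sample was not analysed here. Peak signals are the authors' own values and are comparable within a list only, and the depth of sequencing is not known here. All intervals below cover counting error only, since peaks are not independent replicates.

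Forkhead factors bind DNA through a winged-helix domain, and most of them recognise words close to TGTTTAC, while the FOXN type recognises the shorter GACGC. Regulatory elements away from promoters, such as enhancers, can act on a gene over some distance, so the nearest gene is a position and not a target. In C. elegans hermaphrodites, a dosage compensation complex loads onto the X chromosome at recruitment sites and lowers expression of X-linked genes. Those sites carry a GC-rich motif named MEX, and the 9-base word CCTGCGCGA, read on its other strand, is its opening stretch.

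The sequences at the strongest intergenic summits are shown first, because 2 of these 4 peaks hold a relative of an element found mainly at promoter peaks and 1 holds the X word just named. Each run holds the summit with 50 bases on either side, read from the plus strand of ce11. Capitals mark CCTGCGCGA, CTGCGTCTC or, with at most 3 mismatches, a 14-base element, the word of that length shared by the most IDR summits.
chrV:14055179-14055279: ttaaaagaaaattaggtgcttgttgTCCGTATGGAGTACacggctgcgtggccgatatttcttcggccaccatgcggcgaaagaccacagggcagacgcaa
chrX:16682100-16682200: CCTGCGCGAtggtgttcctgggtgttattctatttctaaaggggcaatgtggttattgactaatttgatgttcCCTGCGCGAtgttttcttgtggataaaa
chrII:6061658-6061758: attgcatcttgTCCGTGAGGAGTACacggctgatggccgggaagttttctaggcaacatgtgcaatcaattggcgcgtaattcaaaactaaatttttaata
chrX:13700793-13700893: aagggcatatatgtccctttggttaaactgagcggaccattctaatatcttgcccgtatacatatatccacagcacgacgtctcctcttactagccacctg

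The next set is shown because the word most shared on X was not found at any autosomal intergenic summit. These are 31-base runs around a copy of CCTGCGCGA, in capitals, within 100 bp of 6 X-linked summits in order of signal (ce11, plus strand).
chrX:16682089-16682119: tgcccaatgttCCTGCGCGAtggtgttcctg
chrX:11094115-11094145: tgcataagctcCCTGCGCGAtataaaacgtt
chrX:4209256-4209286: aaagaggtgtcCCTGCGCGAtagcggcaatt
chrX:8036391-8036421: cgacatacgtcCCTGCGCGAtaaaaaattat
chrX:806661-806691: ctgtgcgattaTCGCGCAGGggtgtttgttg
chrX:16056640-16056670: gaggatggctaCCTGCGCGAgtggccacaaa

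For comparison, the most shared word of autosomal intergenic summits was CTGCGTCTC, which contains GACGC on its other strand. It stands in capitals in runs from 3 of the strongest autosomal peaks that hold it (ce11, plus strand).
chrIV:2219574-2219604: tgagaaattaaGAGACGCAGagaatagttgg
chrV:2600659-2600689: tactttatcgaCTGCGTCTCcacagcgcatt
chrV:1151594-1151624: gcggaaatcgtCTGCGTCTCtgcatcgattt

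The intergenic peaks had a lower median signal than the promoter peaks. Their pooled signal had a median of 73.5 and ran from 51.7 to 478, beside medians of 85.1 for promoter peaks, 77.8 for gene-body peaks and 80.4 for all. Above the median rank of the IDR set stood 120 of the 281 (42.7%, 36.8 to 48.7), against 54.8% of promoter peaks and 43.5% of gene-body peaks. The intergenic share was 15% of the 100 strongest peaks, 19% of the next 200, 22.8% of the 294 after them and 27.1% of the peaks below the median rank. In the longer pooled list beyond the IDR set it stayed between 22.4% and 23.1%. The interval of the first bin (8.65 to 23.5) lay below the share of the genome, and that of the last bin of the IDR set (23.5 to 30.8) included it.

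**Figure D1:**
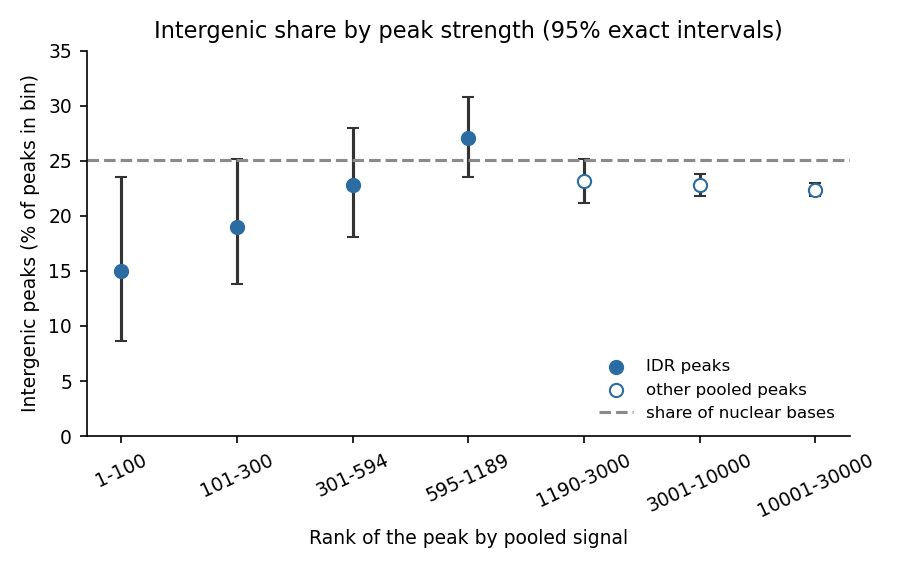
Share of peaks that are intergenic (y axis, %) by rank of pooled signal (x axis). Filled points are IDR peaks and open points other pooled peaks, bars are 95% exact intervals, and the dashed line is the 25.04% of nuclear bases that the rule covers. The points rise from 15% to 27.1% within the IDR set.

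Replicates placed most of these peaks among their own strongest. In replicate 1, 203 of 281 (72.2%, 66.6 to 77.4) had a summit within 200 bp among its own strongest peaks, as many as the IDR set holds, beside 76% of all IDR peaks. In replicate 2 the number was 239 (85.1%, 80.3 to 89.01), beside 86.4% of all. Both replicates held 169 (60.1%), beside 64.9% of all, and 8 were among the strongest of neither. These shares lay near those of the whole set, which was itself derived from both replicates. In the full lists 275 were found in replicate 1, with a median signal of 32.0 and a range of 11.4 to 190.7. All 281 were found in replicate 2, with a median of 45.3 and a range of 11.5 to 288. The rank correlation of both signals over the 275 shared peaks was 0.53, a description over peaks of the same libraries.

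The strongest intergenic peak was chrV:14055229, with a signal of 478 (190.0 in replicate 1 and 288 in replicate 2, rank 4 in each). It lay 2611 bp upstream of a gene known by sequence name. The X-linked peak at chrX:16682150 followed with 336 (190.7 and 148), and chrII:6061708 with 288 (106 and 179). Named genes nearest to the 25 strongest peaks included nlp-40, xol-1, pat-9, slc-17.7, acr-15 and gtr-1. The peak near nlp-40, a neuropeptide gene whose product paces defecation, had 223 (96.6 and 126) and lay 1920 bp downstream of its start. The peak near pat-9, which encodes a zinc-finger factor of body-wall muscle, had 187 (68.8 and 120.1) and lay 6228 bp upstream. The peak near acr-15, a nicotinic acetylcholine receptor subunit gene, had 174 (71.5 and 104) and lay 3460 bp downstream of the start.

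The X chromosome held the most intergenic peaks. It carried 83 of 281 (29.5%, 24.3 to 35.2) where 22.8% of intergenic bases lie, and the interval does not reach that share. Of promoter peaks 10.3% were on X and of gene-body peaks 27.8%. The shares of promoter and gene-body bases on X were not counted, so these values have no such background. Of the 15 members among the 100 strongest IDR peaks, 8 were on X. The share was 28.7% (23.3 to 34.7) among intergenic peaks of replicate 1's own strongest and 26.4% (21.2 to 32.1) in replicate 2, whose interval does reach the base share. Over all 6768 intergenic peaks of the pooled relaxed list it was 22.4%. Chromosome IV was lowest against its bases, with 14.6% (10.7 to 19.3) beside 19.99%. On I, II, III and V the shares were 13.9%, 13.2%, 11.7% and 17.1%. The base shares there (11.2%, 14.3%, 11.1% and 20.6%) lay inside the intervals of these shares. Per Mb of intergenic bases, X held 14.5 peaks, I 13.8, III 11.8, II 10.3, V 9.29 and IV 8.17. Chromosome I was thus nearly as dense as X, but its interval rests on 39 peaks against 83. X therefore did not stand apart from chromosome I in density.

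**Figure D2:**
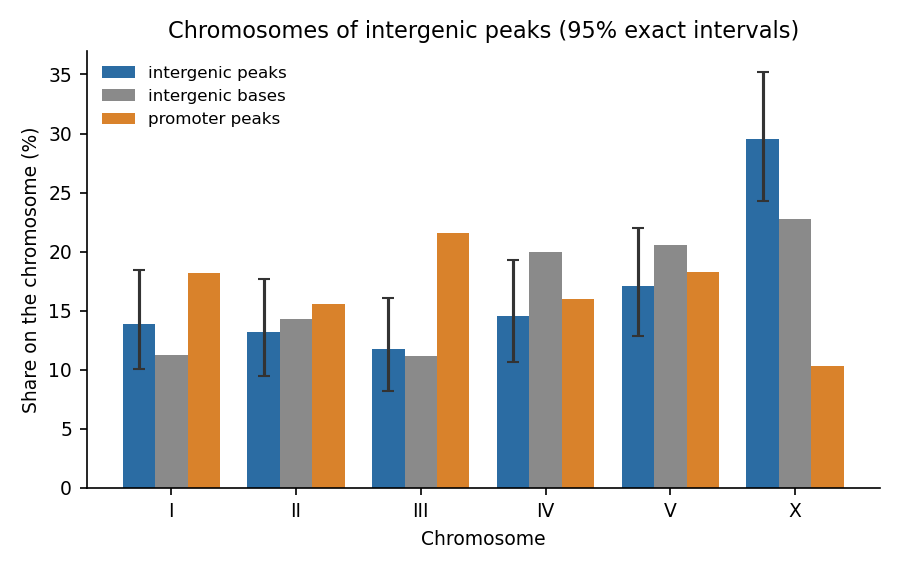
Share of intergenic peaks (blue, with 95% exact intervals), of intergenic bases (grey) and of promoter peaks (orange) on each chromosome (y axis, %). X holds 29.5% of the intergenic peaks, 22.8% of the intergenic bases and 10.3% of the promoter peaks.

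Intergenic summits on X and on the autosomes shared different words. Each word was taken as the 9-base word, with most letters G or C, that the most summits of these same peaks held within 100 bp, so the counts in the IDR set describe the choice and were not tested. CCTGCGCGA, or its other strand, was found at 9 of 83 X-linked summits (10.8%, 5.08 to 19.6) and at 0 of 198 autosomal ones (exact interval up to 1.85%). All X intergenic windows of the same length held it in 0.0781% of cases and autosomal ones in 0.0167%. Flanks of the same length beside the summits held it in 0 of 166 on X. The second most shared word on X, GCGCAGGGA, overlaps the first on the other strand, and 10 X-linked summits held either. Promoter peaks held CCTGCGCGA at 2 of 72 on X and 0 of 627 on autosomes, and gene-body peaks at 2 of 58 and 0 of 151.

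Copies of this word had IDR summits beside them on X and not on the autosomes. Intergenic sequence of X held 23 copies, of which 12 (52.2%) lay within 100 bp of an IDR summit. The autosomes held 17 intergenic copies, and 0 lay that near an IDR summit. Because the word was chosen as the most shared at these X-linked summits, this contrast follows in part from the choice and was not tested. Of the 9 peaks, 3 held more than a single copy, as the paired capitals of the second sequence above show. Below the IDR set, 0 of the 1431 X-linked intergenic peaks of the pooled list held the word, and 1 autosomal peak did.

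The peaks with CCTGCGCGA had a higher median signal than the other X-linked members, and 7 of the 9 stood above the median rank of the IDR set. Their median signal was 172, beside 71.8 for the other 74 X-linked members. The first 4 were chrX:16682150, given above, chrX:11094171 (259, with 135 and 132 in replicates 1 and 2), chrX:4209268 (232, with 116 and 121) and chrX:8036445 (216, with 137 and 76.8). The last of these lay 4868 bp upstream of xol-1, an X-linked gene that acts as the master switch of sex determination and dosage compensation. The peak near gtr-1, which encodes a putative G protein-coupled receptor, had 172 (88.8 and 76.7). The weaker ones had 138 (65.5 and 72.8), 112 (48.8 and 61.8), 77.3 (38.5 and 39.5) and 62.7 (33.6 and 25.6). The third of these 4 and the fourth lay 1130 bp apart, with hlh-29, a HES-like bHLH gene, as nearest gene, and the 112 peak lay 3469 bp upstream of the collagen gene col-185. Of the 9, 8 were matched among the strongest of both replicates.

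These peaks ranked higher in replicate 1 than in replicate 2 in 9 of 9 cases, with median ranks of 76 and 247. The strongest ranked 3 in replicate 1 and 52 in replicate 2, and the xol-1 neighbour 17 and 246. Over all X-linked members found in both lists, 45 of 82 (54.9%, 43.5 to 65.9) ranked higher in replicate 1, against 87 of 193 (45.1%, 37.9 to 52.4) on autosomes. The word was found at 9 of 73 X-linked intergenic peaks among replicate 1's own strongest (12.3%) and at 8 of 71 in replicate 2 (11.3%), with 0 on the autosomes in both. Without the 9 peaks, X held 74 of 272 intergenic peaks (27.2%, 22.01 to 32.9). That share was above the base share of 22.8%, which its interval reaches. All 9 are on X, so leaving them out could only lower the share.

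**Figure D3:**
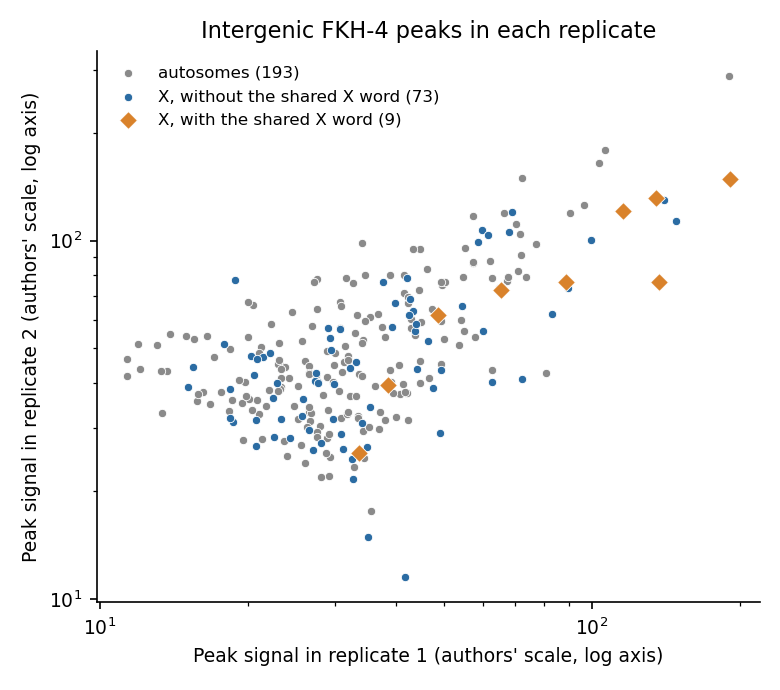
Signal of the 275 intergenic peaks found in both full lists, in replicate 1 (x axis) and replicate 2 (y axis), on the authors' scales and log axes. Grey points are autosomal, blue points X-linked and orange diamonds the 9 X-linked peaks with CCTGCGCGA, whose signals run from 33.6 to 190.7 in replicate 1.

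Another word, chosen as the most shared at autosomal summits, had a higher share there than at X-linked summits. CTGCGTCTC was at 30 of 198 autosomal summits (15.2%, 10.5 to 20.9) and at 3 of 83 X-linked ones (3.61%, 0.752 to 10.2), while 1.07% and 0.391% of all windows held it. Flanks held it in 1.77% of cases on autosomes. Promoter peaks did not show the same order, with 7.18% on autosomes and 9.72% on X. Gene-body peaks did, with 9.27% on autosomes and 5.17% on X. In each replicate's own strongest peaks the autosomal shares were 13.8% and 16.7% and the X shares 5.48% and 7.04%. Peaks with this word had a median signal of 78.4, beside 73.2 without it. Of 1128 autosomal intergenic copies, 37 (3.28%) lay within 100 bp of an IDR summit, and of 118 copies on X, 4 (3.39%) did. Per copy, X and the autosomes were thus alike for this word, and most copies had no IDR summit beside them on either. The 10-base form GAGACGCAGA was at 28 intergenic summits, of which 1 was on X.

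GACGC, which CTGCGTCTC contains on its other strand, was within 100 bp of 31.3% (24.9 to 38.3) of autosomal and 15.7% (8.61 to 25.3) of X-linked summits, with 10.1% and 9.74% of windows. Because of this overlap the counts are not separate. Without the peaks that hold CTGCGTCTC, GACGC was at 32 of 168 autosomal summits (19.05%, 13.4 to 25.8) and 10 of 80 X-linked ones (12.5%, 6.16 to 21.8), and these intervals overlap. The X share was 8.22% among replicate 1's own strongest and 18.3% in replicate 2, with 25.97% and 31.8% on autosomes. Promoter peaks had 31.7% on autosomes and 36.1% on X, and gene-body peaks had 28.5% and 22.4%, the order of the intergenic peaks. GAGAGAG was at 23.7% (17.99 to 30.3) and 9.64% (4.25 to 18.1), with 3.32% and 2.39% of windows. In replicate 1 alone the GAGAGAG shares were 14.9% and 10.96%, with intervals that overlap widely, and in replicate 2 they were 25.3% and 14.1%. The split for GAGAGAG was therefore small in 1 of the libraries, and promoter peaks had the opposite order, with 11.5% on autosomes and 19.4% on X. Gene-body peaks had the order of the intergenic ones, with 16.6% on autosomes and 8.62% on X. CATCTGG, an E-box-like word noticed among the shared ones, was at 16.7% of autosomal and 12.05% of X-linked intergenic summits, at 15.9% and 18.97% of gene-body summits, at 3.99% and 1.39% of promoter summits and at 1.41% and 1.19% of windows.

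**Figure D4:**
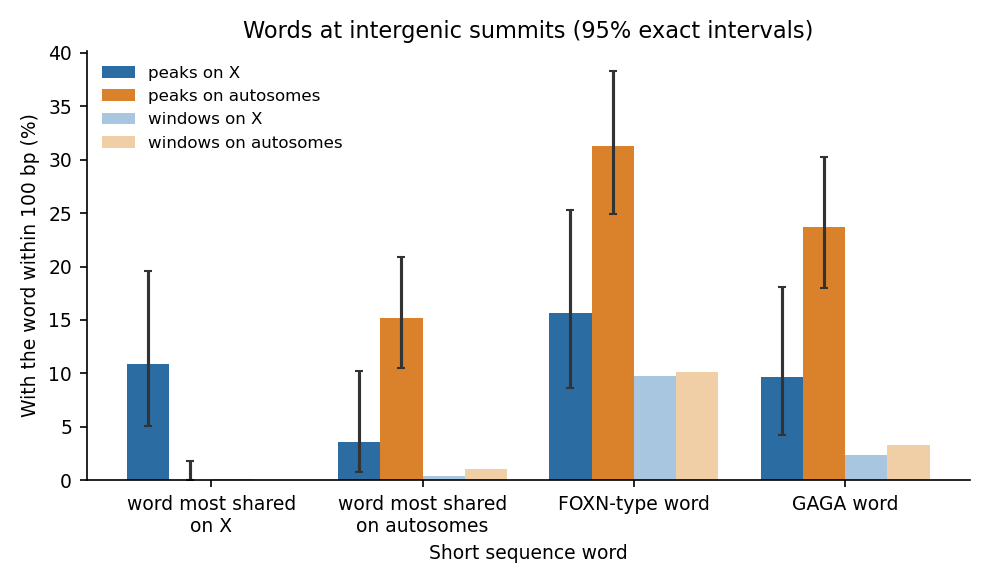
Share of intergenic peaks with a word within 100 bp of the summit (y axis, %), on X and on autosomes (dark bars, with 95% exact intervals), and of all intergenic windows of that length (light bars). The word most shared on X is at 10.8% of X-linked and 0% of autosomal peaks, and the other 3 words are higher on autosomes.

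Any of the 5 forkhead words TGTTTAC or TGTTTAT or TGTTTGC or TGTTTGT or TATTTAC was within 50 bp of 34 summits (12.1%, 8.53 to 16.5), beside 11.9% of flanks centred 300 bp away and 10.02% of all intergenic windows as long. The share at the summits was close to that of the flanks. Among the 153 summits whose GC lay from 36.6% to 47.5%, 22 (14.4%) held a word, against 8.43% of windows in that GC range. No match says only that these letters are not in the window. A strong X-linked peak with such a word is shown because it also holds both shared words, the forkhead word TGTTTGT being in capitals (ce11, plus strand).
chrX:806630-806730: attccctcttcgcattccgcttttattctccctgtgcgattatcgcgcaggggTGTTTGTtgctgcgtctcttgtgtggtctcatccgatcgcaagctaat

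GACGC was within 50 bp of 46 summits (16.4%, 12.2 to 21.2), against 6.58% of flanks and 5.17% of windows. Promoter summits held it more often, at 24.7%, and gene-body summits about as often, at 16.7%. CTGCGTC, entered in the word list under a type other than forkhead, contains GACGC on its other strand. It was at 19 summits (6.76%), against 1.78% of flanks, 0.773% of windows and 8.01% of promoter summits. Each hit of this longer word is also a hit of GACGC, so the 2 words cannot be told apart there. GAGAGAG was at 36 (12.8%, 9.14 to 17.3), against 2.14% of flanks, 1.59% of windows and 6.58% of promoter summits. The E-box words CACGTG and CAGCTG were at 24 (8.54%), against 4.27% of flanks. TGATAA, the word of GATA factors, was less frequent, at 3.20% of summits against 8.90% of flanks, and so was a run of 8 T, at 5.34% against 13.7%. The summits were richer in G and C than their surroundings, with a median of 41.6% against 33.7% for flanks, and promoter summits stood at 45.5%. Within the windows of 36.6% to 47.5% GC, GACGC was still at 15.7% of summits against 7.82% of windows and GAGAGAG at 11.8% against 2.72%. In that range TGATAA was at 3.27% against 6.79% and the run of 8 T at 2.61% against 5.74%, smaller gaps than against flanks. Low shares were also seen at promoter summits (TGATAA 3.29%, run of 8 T 4.72%) and at gene-body summits (1.91% and 5.26%).

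The 14-base element was rare at intergenic summits and at gene-body summits. It was chosen over all IDR summits, most of which are in promoters, so its promoter share is partly set by the choice. With at most 1 mismatch it was at 1 of 281 intergenic summits (0.356%) and 2 of 209 gene-body summits (0.957%), against 68 of 699 promoter summits (9.73%). The single intergenic peak was the third strongest, chrII:6061708. With at most 3 mismatches it was at 7 intergenic summits (2.49%), and the strongest peak, chrV:14055229, was then among them. The share was then 15.2% at promoter summits, 2.87% at gene-body summits and 0.828% in intergenic windows.

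**Figure D5:**
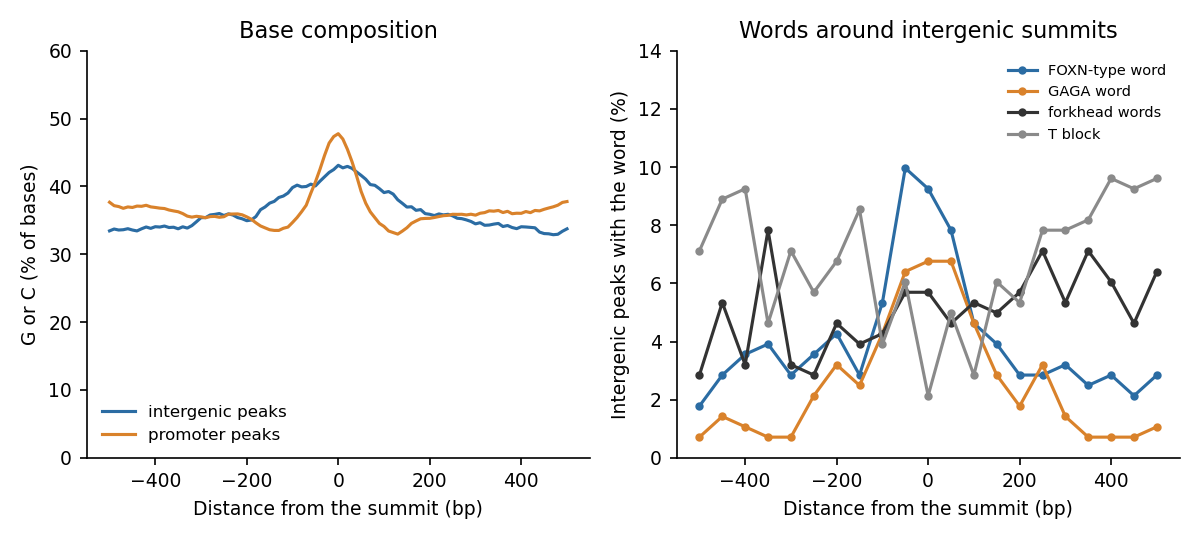
Left, mean share of G or C in 51-bp windows (y axis, %) by distance from the summit (x axis, bp) for intergenic and promoter peaks. Right, share of intergenic peaks with a word in 51-bp windows (y axis, %) by distance from the summit. GC reaches 43.1% at intergenic and 47.8% at promoter summits, GACGC and GAGAGAG (the FOXN-type and GAGA words) are highest near the summit at 9.25% and 6.76% there, the forkhead words are at 5.69%, and the T block is at 2.14%.

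The peaks lay a few kilobases from the nearest coding TSS. The median distance was 2367 bp, with quartiles of 1486 and 4410 bp and a maximum of 16726 bp, and 2687 bp was the median over all intergenic bases. Within 2 kb lay 112 peaks, from 2 to 5 kb 117, from 5 to 10 kb 45 and beyond that 7. The summit was upstream of the nearest start in 206 (73.3%, 67.7 to 78.4), against 64.7% of intergenic bases. With a promoter window of 2000 bp upstream it was so in 61.5%, and the share of bases under that window was not counted. Gaps between genes pointing the same way held 170 (60.5%, against 53.4% of bases), and gaps between genes pointing apart held 86 (30.6% against 29.8%). Gaps between genes that end towards each other held 24 (8.54%, 5.55 to 12.4), against 16.5%. Those 24 had a median signal of 94.9, above the 73.9 and 72.8 of the first and second kind, and 4 of the 9 peaks with the X word lay in such gaps.

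Fewer summits lay in repetitive sequence than intergenic bases do. Soft-masked sequence, which marks repeats in the reference, held 51 summits (18.1%, 13.8 to 23.2) against 40.3% of intergenic bases. The 31 bases at the summit recurred elsewhere in the genome for 7 (2.49%) against 14.9%, and for 1.12% of the intergenic peaks taken from replicate 2 alone. Of promoter and gene-body summits, 19.9% and 15.8% were soft-masked, and the 31 bases recurred for 1.29% and 1.44%. Low shares were thus not particular to the intergenic peaks. How reads that match several places were treated is not known here.

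Starts of non-coding genes, here with pseudogenes counted among them, were within 200 bp of 58 intergenic summits (20.6%, 16.1 to 25.8). As near were 12.7% of intergenic bases and 13.4% of promoter summits. The shares were alike on X (20.5%) and on autosomes (20.7%), although only 8.58% of X intergenic bases are as near against 13.9% on autosomes. The annotation's general ncRNA class accounted for 40 (14.2%, 10.4 to 18.9, against 3.75% of bases). Transfer RNA genes were near 8 (2.85% against 0.337%) and snoRNA genes, which guide RNA modification, near 6 (2.14% against 0.126%). Genes of piRNAs were near 4 (1.42% against 6.05%) and pseudogenes near 3 (1.07% against 2.35%), among them the third strongest peak, chrII:6061708. Neither miRNA nor rRNA genes were near any, where only 0.172% and 0.0319% of intergenic bases are as near. Near sls-2.2, a gene for the SL2 spliced leader RNA used in trans-splicing, 2 peaks stood 202 bp apart. The one 30 bp upstream of its start had a signal of 155 (70.9 and 82.3), and the one 172 bp downstream had 123 (41.5 and 71.5). Another non-coding RNA gene overlaps sls-2.2 on the other strand, so the summits cannot be given to either. The sequence at the stronger summit is shown because it spans the start of the gene, with no word in capitals (ce11, plus strand).
chrII:5543518-5543618: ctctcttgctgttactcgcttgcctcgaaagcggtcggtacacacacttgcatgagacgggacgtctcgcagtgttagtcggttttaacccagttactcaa

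Among nearest coding genes, 23 peaks (8.19%, 5.26 to 12.03) had a gene of the 10 developmental lists, against 4.67% of intergenic bases, 2.29% of promoter peaks and 7.66% of gene-body peaks. Nuclear hormone receptors, ligand-regulated transcription factors, gave 7 peaks (2.49%, 1.01 to 5.07), near their share of 1.88% of intergenic bases. The strongest were near nhr-21 (78.5), nhr-88 (73.5) and nhr-1 (70.7). Homeobox genes outside the Hox cluster gave 5 (1.78%, 0.58 to 4.10, against 0.99% of bases). They were led by zag-1, which specifies neurons (131, with 46.3 and 83.1), ceh-1 (81.6) and the Meis-type unc-62 (67.4). The bHLH genes gave 5 (1.78%, 0.58 to 4.10, against 0.474%), led by hif-1, the hypoxia-inducible factor (142, with 34.1 and 98.4), hlh-10 (83.1) and hlh-29 (77.3). GATA-type genes gave 3 (1.07%, 0.221 to 3.09, against 0.189%). Of these, egl-18, which maintains epidermal seam cells, was near 2 (144 and 55.1) and egl-27 near the other (61.7). The Wnt ligand gene egl-20 (75.5), the T-box gene tbx-34 (61.6) and the FOXO gene daf-16 (51.8) had 1 each, and the Hox, Sox and heterochronic lists had 0. Genes of the lists with 0 are nearest to only 0.195%, 0.0928% and 0.204% of intergenic bases. For the Wnt, T-box and forkhead lists the base shares are 0.233%, 0.211% and 0.211%. Of the 120 strongest intergenic peaks, 5 (4.17%) were nearest to a listed gene, so 18 of the 23 lay in the weaker part of the set.

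Lists of differentiated functions gave few peaks. Muscle genes gave 3 (1.07% against 0.330% of intergenic bases), near the troponin gene tni-1 (84.2), the actin gene act-1 (55.7) and unc-97 (54.3). Neuropeptide genes gave 5 (1.78% against 1.48%), near nlp-40, ins-13 (the sls-2.2 pair) and flp-16 (56.4 and 55.8), and collagen genes gave 3 (1.07% against 0.596%), near col-185, col-61 (65.1) and col-99 (53.3). The neuronal list gave 1 (0.356% against 0.279%), near the ankyrin gene unc-44 (65.3). Chemoreceptor genes, a very large family, were nearest to 2 (0.712%) against 5.25% of intergenic bases, srd-32 (127) and srr-6 (73.02). Ribosomal protein genes were nearest to 0 intergenic peaks, against 20 promoter peaks, and the intestine and epidermis lists also to 0. Genes of these 3 lists are nearest to only 0.195%, 0.147% and 0.294% of intergenic bases.

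Peaks with another IDR summit within 2 kb numbered 40 (14.2%, 10.4 to 18.9), against 10.2% of promoter and 16.3% of gene-body peaks. They formed 27 pairs, of which 14 joined intergenic peaks with each other. In 8 pairs the summits were under 250 bp apart, which is less than the median peak width of 396 bp. Whether such pairs are single sites that the peak calling split was not tested.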

How the data were processed

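FKH-4 ChIP-seq was analysed in 2 biological replicates of whole L1 larvae (1 group). The signal values and −log10 q values of the peaks were deposited by the authors (−log10 q from 2.20 to 3.30 in the IDR set). They were made against a control of another experiment, per the sample listings. The IDR set held 1189 peaks, of which the 594 strongest stand above the median rank, and each replicate's own 1189 strongest were compared with it. Aligner, caller, IDR threshold and read depth: not given in the sources used here. Signals were compared within a list only.

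The summit was computed from the ce11 lists, genes came from the Ensembl release 115 annotation of WBcel235, with 19973 coding genes, and sequences came from the RefSeq copy of the same assembly. Python 3.11.15 with numpy 2.4.6, pandas 2.3.3 and scipy 1.17.1 was used, and scripts were tested on simulated peaks. Windows were 50 bp on either side of the summit, or 100 bp for shared words, both strands. The background was every intergenic base or all intergenic windows of 101 or 201 bp. Intervals are 95% exact Clopper-Pearson.

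Members, gene lists and words were chosen with earlier results of these data known, and the shared words from the peaks themselves. No test was run, since there is 1 group and no control. Genes named are those nearest to the 25 strongest intergenic peaks, the 10 non-coding genes with the strongest peaks, and up to 3 per list. Genes known by sequence name were counted. The result at 1 of the strongest peaks is not reported here. mig-2, nfki-1 and the genes of the peaks with the X word were named after their values were seen. Alternatives varied the promoter window, annotation, peak number, replicate, distances and word window.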

Additional observations from a re-analysis of the deposited data

How the results depend on the processing

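Of 93 alternative values of the main results, 70 stayed and 23 moved. A value stayed where it lay within the interval of the reported value. The number of peaks has no interval, and it stayed where it lay within 1.5 times the reported number. With a promoter window of 2000 bp upstream, 187 peaks were intergenic (15.7%), at a median of 3452 bp from the nearest TSS. With 500 bp upstream and 100 bp downstream the share was 31.3% and the median 1834 bp. Leaving out the spans of all annotated genes gave 21.03%. Above the median rank of the IDR set, 120 were intergenic (20.2%), at a median of 2789.5 bp, with 95.8% matched in replicate 1 and 99.2% in replicate 2, 6.67% with a neighbour and 4.17% nearest to a developmental gene. Matching to the upper ranks of each replicate, as many as stand above the IDR set's median, gave 45.2% and 43.8%. Leaving out a replicate gave 44.6% to 49.6% above the median rank. Non-coding starts were near 12.8% within 100 bp and 27.4% within 500 bp. Forkhead words were at 5.69% within 25 bp and 23.8% within 100 bp. Neighbours stood at 8.90% within 1 kb and 27.4% within 5 kb. Genes flanking the peak were developmental for 12.1%. GACGC was at 11.4% and GAGAGAG at 8.66% without replicate 2. The share on X stayed within its interval under each alternative run. For these values the cause was not tested beyond the change of window, distance or number that defines each alternative. No paired analysis was possible because there is 1 group. Depth is unknown, so what it limits cannot be stated. The shares upstream of the nearest start were 61.5% and 78.8% with the wider and the narrower promoter window. Chosen after seeing the data were 3 alternatives (coding transcripts only, leaving out peaks near non-coding starts, and GACGC without peaks that hold the word most shared on autosomes) and all alternatives for GACGC or GAGAGAG, soft-masking and the upstream and downstream shares.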
